A study of Mus musculus with 12 samples.

Results

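The genes described here are 10 of the 9381 genes measured above background in primary tracheal epithelial cells of male C57BL/6J mice, grown on Transwell membranes at the air-liquid interface (ALI). The genes Clca3b, Myl4, Diras2, Lbh, Rnase4, Synm, Stmnd1, Calml4, Fam216b and Sec14l3 were chosen because they rose from day 3 to day 9 of ALI in cultures that had received a scrambled shRNA by lentivirus, and reached lower levels in cultures that had received an shRNA against Myb. Their levels in these contrasts are therefore given as a description and carry no test. The study crossed ALI day (3 or 9) with shRNA (Myb or scrambled) in 3 biological replicates per group, which makes 4 groups and 12 Illumina bead arrays of total RNA. All groups were transduced with a lentivirus, and no group without one is compared here.

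At the air-liquid interface, basal cells of the tracheal epithelium exposed to air on their apical side differentiate over days into ciliated and secretory cells. Myb is a transcription factor known to act early in that differentiation, before the ciliary genes are switched on. It binds short DNA elements built around the letters AAC. Among the 10 genes, Clca3b and Rnase4 encode secreted proteins, Myl4, Synm, Stmnd1 and Calml4 encode proteins of the cytoskeleton or relatives of such proteins, Diras2 and Lbh act in signalling and transcription, and Sec14l3 encodes a lipid-binding protein. Rnase4, a secreted ribonuclease, lies in 1 locus with Ang, the gene of angiogenin, and the transcripts of both can begin at the same start site.

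Because the shRNA was directed at a DNA-binding factor, the promoter windows of the 10 genes were searched for its element, and 4 windows are shown. Each window covers 250 bases before to 50 bases after a RefSeq start site (GRCm38.p6), read 5′ to 3′ on the gene's strand, so that it holds the proximal promoter and the first transcribed bases. Capitals mark matches to CAACNG or TAACNG (the MYB letters), to GTTGCC (a half-site of the RFX factors of ciliated cells) or to TGTTTAC (the letters of forkhead factors such as FOXJ1), on either strand. Clca3b is shown for its pair of overlapping MYB matches, Rnase4 because Ang has the identical window, Stmnd1 for the most MYB matches, and Sec14l3 because it has 3 probes that were all detected on every array.
Clca3b, chr3:144849253-144849552, minus strand: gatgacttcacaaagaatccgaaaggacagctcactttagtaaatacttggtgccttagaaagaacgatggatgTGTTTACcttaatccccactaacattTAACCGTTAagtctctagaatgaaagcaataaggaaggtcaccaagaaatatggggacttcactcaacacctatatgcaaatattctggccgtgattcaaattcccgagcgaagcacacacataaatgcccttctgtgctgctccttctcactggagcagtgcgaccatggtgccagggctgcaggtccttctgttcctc
Rnase4 and Ang, chr14:51090827-51091126, plus strand: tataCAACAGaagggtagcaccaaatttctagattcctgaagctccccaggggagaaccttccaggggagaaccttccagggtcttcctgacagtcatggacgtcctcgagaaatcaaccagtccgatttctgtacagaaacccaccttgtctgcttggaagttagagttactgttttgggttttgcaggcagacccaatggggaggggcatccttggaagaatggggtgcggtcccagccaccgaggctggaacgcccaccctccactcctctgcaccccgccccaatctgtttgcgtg
Stmnd1, chr13:46273471-46273770, plus strand: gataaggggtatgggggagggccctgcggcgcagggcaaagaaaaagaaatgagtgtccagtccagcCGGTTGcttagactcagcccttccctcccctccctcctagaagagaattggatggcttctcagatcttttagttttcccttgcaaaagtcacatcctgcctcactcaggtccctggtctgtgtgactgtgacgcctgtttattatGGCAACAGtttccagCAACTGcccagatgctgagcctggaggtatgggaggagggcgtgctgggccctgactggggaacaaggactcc
Sec14l3, chr11:4064603-4064902, plus strand: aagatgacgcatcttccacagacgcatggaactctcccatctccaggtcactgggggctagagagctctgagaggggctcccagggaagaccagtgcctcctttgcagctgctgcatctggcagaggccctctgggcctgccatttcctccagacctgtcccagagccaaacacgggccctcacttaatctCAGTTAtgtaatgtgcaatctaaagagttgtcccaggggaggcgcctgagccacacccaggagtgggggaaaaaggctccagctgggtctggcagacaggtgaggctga

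All 10 genes held at least 1 match to the MYB letters in at least 1 window, against 50.5% of 7526 other tested genes with a window and 62.4% of 452 other genes that rose in scrambled cultures and were lower with Myb shRNA at day 9. These letters are short, and 49.7% of all 32851 windows in the table hold them. In Clca3b the matches TAACCG and CCGTTA, at -150 and -147 from the start site, overlap on opposite strands, and a forkhead match lies at -176. Positions give the first base of a match as printed. In Stmnd1 the RFX match at -38 overlaps the MYB match at -36, and further MYB matches lie at -183 and -23. The single match in Sec14l3 lies at -59, and that in the shared Rnase4 and Ang window at -246. The RFX letters were found for 2 of the 10 genes, Stmnd1 and a second Rnase4 window, against 15.4% of other tested genes, and the forkhead letters for 1, Clca3b, against 3.34%. A match describes letters in the window and is not a measured binding site.

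The arrays detected between 13247 and 15100 of 45281 probes each, at a detection p-value under 0.01. Levels are log2 normalised intensities with a small offset, so that 1 unit is a doubling and values near 5 are at background. Values of 1 gene on the 3 arrays of a group are given in the order of replicates 1, 2 and 3. Of the 10 genes, 4 (Clca3b, Lbh, Rnase4 and Sec14l3) were detected on all 12 arrays. Myb itself has 4 probes, none of which passed the detection filter, with 1 detection in all, so the arrays do not check the knockdown. RNA came from whole cultures, in which fewer cells of a type and less RNA per cell cannot be told apart. Replicate 3 stood above the others for these genes in most groups, as described further on.

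**Figure D1:**
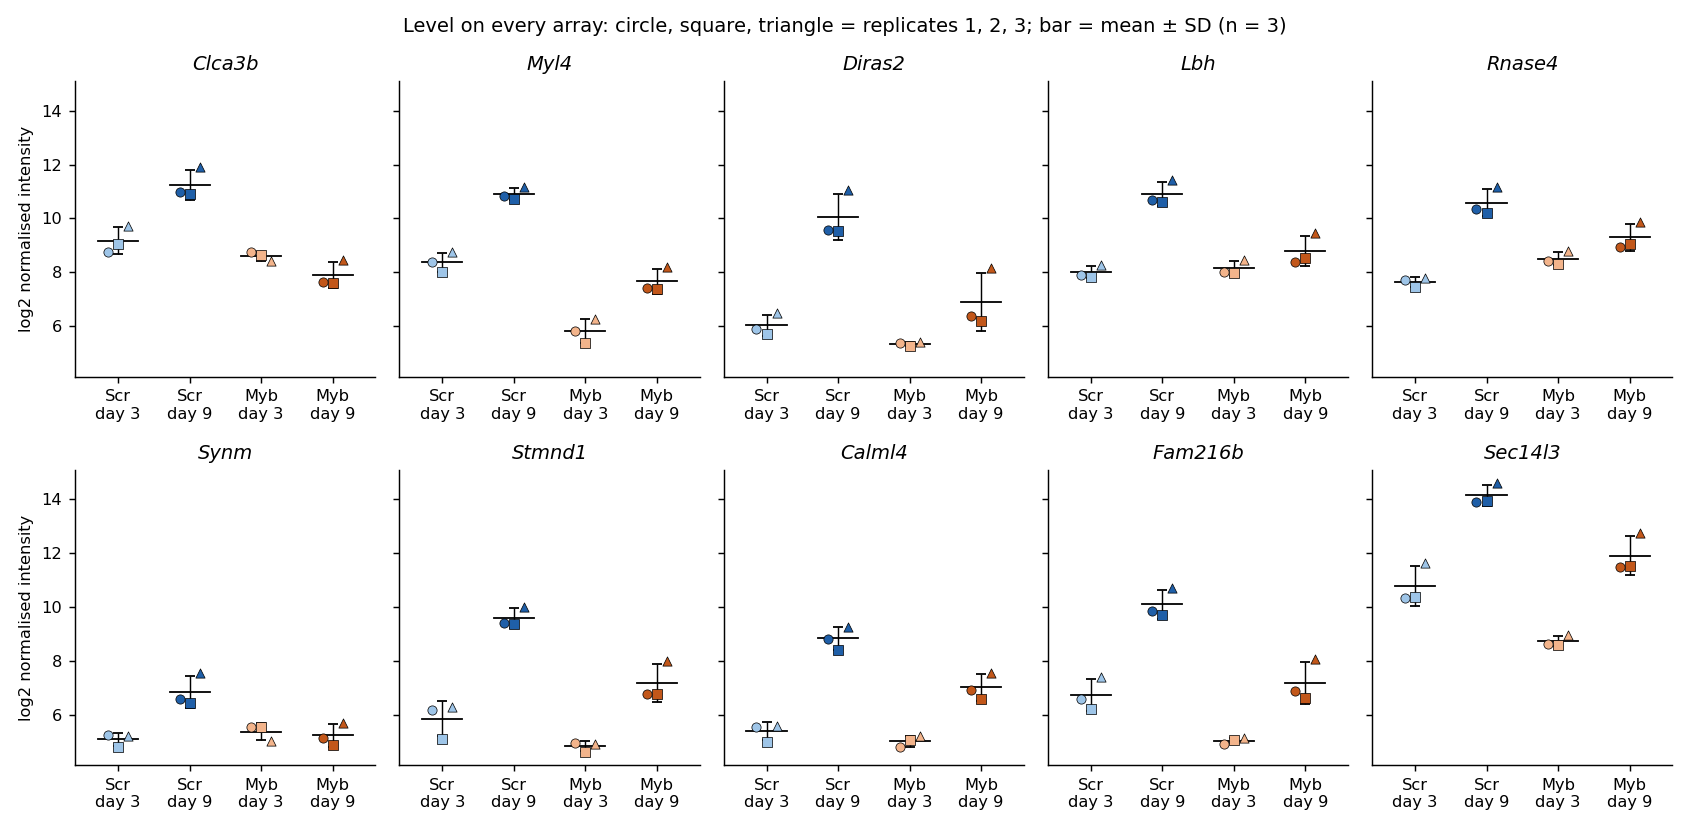
Level of each of the 10 genes on every array, as log2 normalised intensity, by shRNA and ALI day. Circles, squares and triangles are replicates 1, 2 and 3, and bars are group means ± SD (n = 3). For every gene the 3 scrambled arrays of day 9 lie above the 3 of day 3 and above the 3 Myb shRNA arrays of day 9.

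Of the secreted proteins, Clca3b belongs to the CLCA family of calcium-activated chloride channel regulators. Its level was 8.75, 9.05 and 9.72 in scrambled cultures at day 3 and 10.98, 10.89 and 11.90 at day 9. With Myb shRNA it was 8.75, 8.64 and 8.42 at day 3 and 7.64, 7.60 and 8.45 at day 9. The gene thus rose with time in the scrambled arm, whereas in the Myb arm its highest day 9 value lay inside the day 3 range. The mean rise was 2.08 ± 0.30 (log2, SE from the fit over all genes, n = 3 per group) in the scrambled arm, a 4.23-fold change, against -0.71 ± 0.30 in the Myb arm. At day 9 the level with Myb shRNA was 10.3-fold lower, the largest fall of all 9381 genes, and the difference between the arms' changes, -2.79 ± 0.43, was also the largest in that direction. Its mean at day 9 with Myb shRNA differed by -1.28 from the mean of scrambled cultures at day 3.

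Rnase4, a secreted ribonuclease of the RNase A family, was at 7.73, 7.45 and 7.78 in scrambled cultures at day 3 and at 10.36, 10.22 and 11.15 at day 9. With Myb shRNA it was at 8.42, 8.33 and 8.79 at day 3 and at 8.95, 9.07 and 9.87 at day 9. It was the 1 gene of the 10 whose day 3 values were all higher with Myb shRNA than with scrambled shRNA, by 0.86 ± 0.26. The groups of day 9 lay the other way round, with Myb shRNA lower by 2.43-fold, the smallest fall of the 10. The rise was 2.93 ± 0.26 in the scrambled arm and 0.78 ± 0.26 in the Myb arm.

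Among the cytoskeletal proteins, Myl4, the essential myosin light chain of atrial and embryonic muscle, was at 8.37, 8.03 and 8.74 in scrambled cultures at day 3 and at 10.85, 10.72 and 11.16 at day 9. Under Myb shRNA the values were 5.83, 5.40 and 6.29 at day 3, where 2 of 3 arrays detected it, and 7.42, 7.39 and 8.21 at day 9. Here the arms already differed at day 3, with no overlap, by 5.82-fold, and they differed at day 9 by 9.44-fold. The rise in the Myb arm was 1.83 ± 0.26, from a day 3 level near background. It was 72.4% of the rise of 2.53 ± 0.26 in the scrambled arm on the log2 scale. This share and the day 3 difference can both be too small where the true level lies lower. Within the replicate numbers the rises were 2.48, 2.69 and 2.41 with scrambled shRNA and 1.59, 1.99 and 1.92 with Myb shRNA, smaller with Myb shRNA in each. Only 3 of 20 listed genes of striated and heart muscle passed the detection filter, and 13 were detected on no array.

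Synm encodes synemin, a large intermediate filament protein. It was at 5.26, 4.81 and 5.21 in scrambled cultures at day 3, where no array detected it, and at 6.59, 6.43 and 7.55 at day 9. In the Myb arm it was at 5.56, 5.57 and 5.02 at day 3 and at 5.13, 4.90 and 5.72 at day 9, with 1 array detected on each day. Only the scrambled cultures of day 9 thus held it clearly above background. Its rise in the scrambled arm was at least 2.42-fold, a bound set by the lowest detected signal of the day 3 arrays. Of its 4 probes, the other 3 were detected on no array.

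Stmnd1 encodes a protein with a stathmin domain, the domain by which stathmins bind tubulin. Its level was 6.18, 5.12 and 6.31 in scrambled cultures at day 3, with 2 of 3 arrays detected, and 9.42, 9.36 and 10.02 at day 9. With Myb shRNA it was 4.97, 4.63 and 4.93 at day 3, with no array detected, and 6.79, 6.79 and 7.99 at day 9. It rose in both arms without overlap of the days, 13.3-fold with scrambled shRNA and at least 3.23-fold with Myb shRNA. At day 9 it was 5.33-fold lower with Myb shRNA. Because the Myb arm starts at background, the difference between the rises (-1.39 ± 0.49) depends on how background is treated. With quantile normalisation of signals floored at 1, in place of a modelled background, it became 0.54.

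Calml4 encodes a calmodulin-like protein that serves as a light chain of an unconventional myosin in the microvilli of intestinal cells. It was at 5.57, 5.01 and 5.60 in scrambled cultures at day 3, with 1 array detected, and at 8.83, 8.42 and 9.27 at day 9. Cultures with Myb shRNA had it at 4.81, 5.06 and 5.21 at day 3, with none detected, and at 6.94, 6.59 and 7.57 at day 9. The gene was near background in both arms at day 3 and rose in both. The rise with scrambled shRNA was 3.44 ± 0.27 on the log2 scale, or 10.9-fold, from a day 3 level near background. With Myb shRNA it was at least 2.9-fold. At day 9 the level was 3.50-fold lower with Myb shRNA.

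Of the signalling and transcription genes, Diras2 encodes a small GTPase of the Ras family. Its level was 5.91, 5.73 and 6.48 in scrambled cultures at day 3 and 9.59, 9.52 and 11.04 at day 9. In the Myb arm it was 5.39, 5.27 and 5.41 at day 3, with 1 array detected, and 6.38, 6.21 and 8.16 at day 9. Replicate 3 was the highest by more than 1 unit in both day 9 groups. The rise in the scrambled arm, 4.01 ± 0.47 or 16.2-fold, was the third largest of all tested genes, and the rise in the Myb arm was 1.56 ± 0.47, from a day 3 level near background. With replicates 1 and 2 alone the rise in the Myb arm was 0.96. At day 9 the level was 8.76-fold lower with Myb shRNA, and a second probe gave a difference of -2.69 beside the -3.13 of the probe used.

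Lbh, a transcription cofactor first known from limb bud and heart and a target of WNT signalling in mammary epithelium, was at 7.92, 7.84 and 8.26 in scrambled cultures at day 3 and at 10.69, 10.62 and 11.44 at day 9. In cultures with Myb shRNA it was at 8.00, 7.98 and 8.46 at day 3 and at 8.39, 8.55 and 9.45 at day 9. The arms overlapped at day 3 and were apart at day 9, when the level was 4.34-fold lower with Myb shRNA. The rise was 2.91 ± 0.27 in the scrambled arm and 0.66 ± 0.27 in the Myb arm, where the days overlapped. A second Lbh probe gave a rise of 2.74 and 0.25.

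Sec14l3, a phospholipid-binding protein of the SEC14 family, has 3 probes, each detected on all 12 arrays. With the probe used its level was 10.33, 10.39 and 11.65 in scrambled cultures at day 3 and 13.90, 13.93 and 14.60 at day 9. Under Myb shRNA it was 8.65, 8.61 and 8.96 at day 3 and 11.50, 11.51 and 12.74 at day 9. The arms lay apart at both days by a similar amount, 4.14-fold at day 3 and 4.68-fold at day 9. The rise with Myb shRNA, 3.18 ± 0.36, was 94.7% of the 3.35 ± 0.36 with scrambled shRNA for the probe used, so a smaller rise with Myb shRNA is not clear from it. The difference between the rises was -0.18, with a 95% interval from -1.28 to 0.93 that also allows a clearly smaller rise, and it was between -0.61 and 0.05 when single arrays were left out. Its other 2 probes gave rises of 3.60 and 3.43 with scrambled and of 2.84 and 2.71 with Myb shRNA.

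Fam216b was at 6.60, 6.23 and 7.40 in scrambled cultures at day 3 and at 9.87, 9.72 and 10.73 at day 9. In the Myb arm it was at 4.94, 5.08 and 5.14 at day 3, where no array detected it, and at 6.88, 6.64 and 8.09 at day 9. Its day 9 values with Myb shRNA thus overlapped those of day 3 with scrambled shRNA. At day 3 the level was at least 2.38-fold lower with Myb shRNA, and at day 9 it was 7.50-fold lower. The rise was 10.3-fold in the scrambled arm and at least 3.27-fold in the Myb arm.

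**Figure D2:**
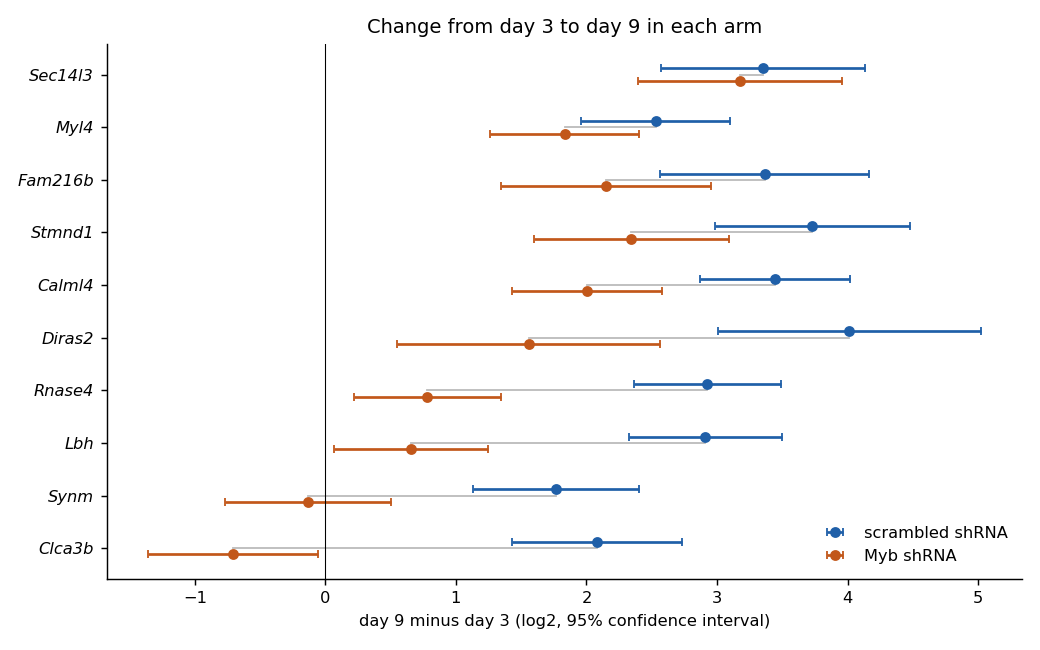
Change from day 3 to day 9 (log2) in the scrambled arm (blue) and the Myb shRNA arm (orange), with 95% confidence intervals from the fit over all genes (n = 3 arrays per group). The genes are ordered by the share of the scrambled rise seen in the Myb arm, which is 94.7% for Sec14l3, 72.4% for Myl4 and negative for Synm and Clca3b. Rises of Stmnd1, Calml4, Fam216b and, in part, Diras2 in the Myb arm and of Synm in the scrambled arm start at background and are too small where the true level lies below it. The same holds in part for Calml4 in the scrambled arm and for Myl4 in the Myb arm.

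The 10 genes followed different courses. In Clca3b and Lbh the arms overlapped at day 3 and did not overlap at day 9, and in Rnase4 the arm with Myb shRNA went from the higher at day 3 to the lower at day 9. In Diras2 the arms did not overlap on either day, with a mean difference of -0.68 at day 3, where 1 of 3 Myb shRNA arrays detected it, and of -3.13 at day 9. In Sec14l3 and Myl4 the arms were apart by more than 2 units at day 3 already, and both genes rose in both arms without overlap of the days. For Synm, Stmnd1, Calml4 and Fam216b at least 1 day 3 group was at background, so the size of their change in that arm is known as a bound alone. Compared by replicate number, the rise was smaller with Myb shRNA for all 3 numbers in 9 genes and for 2 numbers in Sec14l3. The choice of the genes favours this count, and it includes Stmnd1, Calml4 and Fam216b, which start at background in the Myb arm. In 8 genes the mean of the Myb arm at day 9 lay above the scrambled mean of day 3, and in Clca3b and Myl4 it lay below. For neither count was the share over all genes computed, so both are descriptions of these genes only.

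The choice of the genes sets their direction, and the counts that follow are given beside their backgrounds. Day 9 lay above day 3 on all arrays of the scrambled arm for 10 of 10 genes (14% of all tested genes) and of the Myb arm for 7 of 10 (17%), the exceptions being Clca3b, Lbh and Synm. Myb shRNA lay below scrambled shRNA on all arrays for 10 of 10 genes at day 9 (16.9%) and for 5 of 10 at day 3 (18.7%). At day 3, 1 of 10 lay above (17.9%), which was Rnase4. The median difference of the 10 was 3.14 for the scrambled rise, 1.70 for the Myb rise, -2.32 for Myb shRNA at day 9 and -0.62 at day 3, where the medians of all genes lay between -0.07 and 0.05. Of the tested genes, 6.16% (578) rose in the scrambled arm and were also lower with Myb shRNA at day 9. Their median rise was 1.13 in the scrambled arm and 0.79 in the Myb arm, and 394 of them rose less in the Myb arm.

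**Figure D3:**
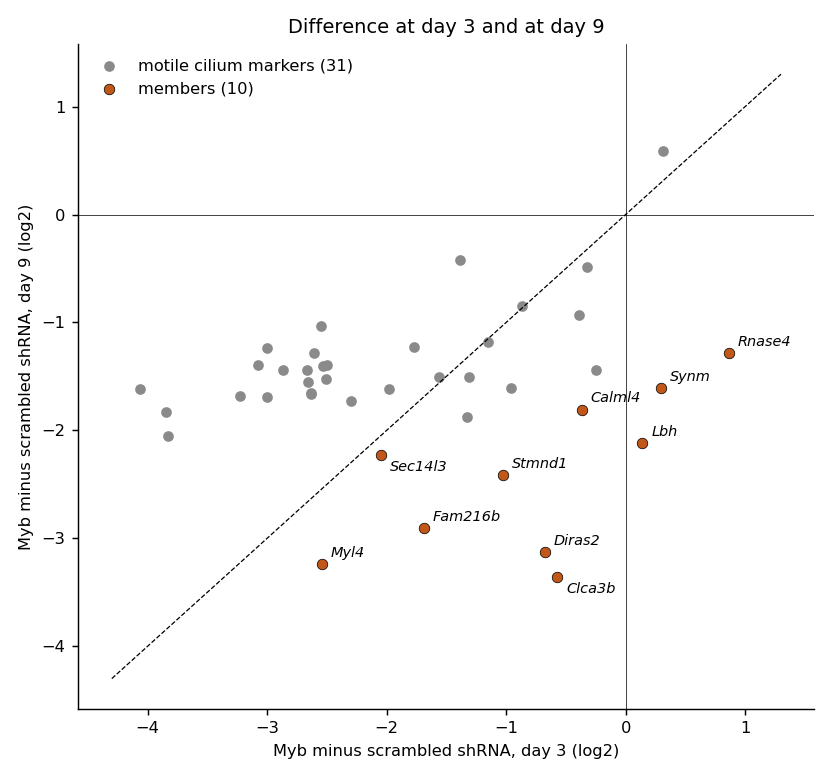
Difference between Myb and scrambled shRNA at day 3 (horizontal axis) and at day 9 (vertical axis), both log2, for the 10 genes (orange) and 31 markers of motile cilia (grey). On the dashed line both differences are equal. All 10 genes lie below the line, with a larger difference at day 9, as the choice of the genes favours, and 23 of 31 cilium markers do not have the larger difference at day 9. Stmnd1, Calml4 and Fam216b, like some cilium markers, were not detected at day 3 with Myb shRNA, so their day 3 differences can be too small. Under the alternative settings the Stmnd1 difference ranged from -3.10 to -0.30 at day 3 and from -2.81 to -2.12 at day 9.

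Genes of the motile cilium moved with the 10 genes in time and with the shRNA. Of 40 listed markers, 31 were tested, and their calls come from limma's moderated test with Benjamini-Hochberg adjustment over all genes, at an adjusted p under 0.05. In the scrambled arm 28 rose and 0 fell (9.55% of all tested genes rose and 7.52% fell), with a median of 1.38. In the Myb arm 29 rose and 0 fell (9.26% and 7.43%), with a median of 2.36. At day 3, 24 were lower with Myb shRNA and 0 higher (11.2% and 11.5%), with a median of -2.51. At day 9, 26 were lower and 0 higher (9.48% and 6.65%), with a median of -1.45. The interaction of day and shRNA was called positive for 9 and negative for 0 (0.746% and 0.906%), with a median of 0.98. Markers without a call had values of either sign, such as -1.19 for Dnah5 and 1.55 for Rsph1. The 10 genes have a median interaction of -1.67, a sign that their choice favours, so the 2 medians are not a comparison of like sets. The count of 9 was 4 without day 3 Myb shRNA replicate 1.

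The markers' levels show the same course. Their summed normalised intensity ranged from 22900 to 37500 in scrambled cultures at day 3 and from 62200 to 83000 at day 9. With Myb shRNA it ranged from 3980 to 4490 at day 3 and from 21100 to 34100 at day 9. Morn5, a MORN-repeat gene of the list, was lower with Myb shRNA by -3.85 ± 0.17 at day 3 (adjusted p = 5.05e-08) and by -1.83 at day 9 (adjusted p = 2.44e-05). Capsl, a calcium-binding protein gene of the list, differed by -1.31 at day 3 (adjusted p = 2.31e-05) and by -1.51 at day 9 (adjusted p = 2.44e-05). The part of ciliated cells in the levels of the 10 genes was not tested.

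Markers of other cell types moved too. Of all tested genes, 9.55% rose in the scrambled arm and 9.26% in the Myb arm, and with Myb shRNA 9.48% were lower and 6.65% higher at day 9, and 11.2% lower and 11.5% higher at day 3. Among 13 tested club and secretory markers, 6 rose in the scrambled arm, 8 rose in the Myb arm, and with Myb shRNA 6 were lower at day 9, and 8 lower and 1 higher at day 3. Scgb1a1, the club cell secretoglobin, rose by 1.68 in the scrambled arm (adjusted p = 0.000652) and was lower with Myb shRNA at day 9 by -2.20 (adjusted p = 0.000112). It was also lower at day 3, by -1.23 (adjusted p = 0.00388), and its interaction was not called (adjusted p = 0.231). Among 14 basal markers, 4 were higher with Myb shRNA at day 9 and 6 at day 3, with 0 lower on either day, and among 9 squamous markers 4 and 3 were higher. Lama3, a laminin chain gene of basal cells, was higher with Myb shRNA by 0.87 at day 9 (adjusted p = 0.00458) and by 1.74 at day 3 (adjusted p = 1.65e-05). Of 9 tested regulators of multiciliogenesis, 1 was lower at day 9 and 5 at day 3, and of 5 goblet markers 2 were lower on each day. Of 4 ionocyte, tuft and neuroendocrine markers, 2 were lower and 1 higher on each day, and of 4 leukocyte and endothelium markers 1 was lower at day 9 and 3 at day 3.

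Of the 2 fibroblast and smooth muscle markers and the 3 striated and heart muscle markers tested, 0 were called higher at day 9 than at day 3 in either arm. Of all tested genes 9.55% rose in the scrambled arm and 9.26% in the Myb arm, so a count of 0 among so few genes is near that share. The cell source of Myl4 and Synm was not tested. Of 12 fibroblast and smooth muscle markers, 10 were detected on no array and 2 were tested. Acta2, smooth muscle actin, fell by 3.32 in the scrambled arm (adjusted p = 0.000115) and fell by 2.52 in the Myb arm (adjusted p = 0.000652). Acta1, skeletal muscle actin, fell by 1.63 in the scrambled arm (adjusted p = 0.0223, and up to 0.115 with 1 of 4 arrays left out) and fell by 2.36 in the Myb arm (adjusted p = 0.00224). Neither differed between the shRNAs beyond the test at day 9, with adjusted p = 0.383 for Acta2 and 0.815 for Acta1.

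Relatives of the 10 genes, which the choice did not use, showed mixed directions. Of 86 listed relatives and partners, 25 passed the detection filter. In the scrambled arm 5 rose and 1 fell (9.55% and 7.52% of all tested genes), and in the Myb arm 2 rose and 5 fell (9.26% and 7.43%). With Myb shRNA 4 were higher and 5 lower at day 9 (6.65% and 9.48%), and 6 higher and 4 lower at day 3 (11.5% and 11.2%). With the replicate number as a block, 12 relatives in place of 6 were called for the scrambled rise and 11 in place of 7 for the Myb rise. When each array was left out in turn, 3 of the 6 and 3 of the 7 were called every time. The median relative changed by 0.04 in the scrambled arm and differed by 0.01 at day 9.

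The relative closest in pattern and position was Ang, angiogenin, the only one of 10 genes of the RNase A family and its inhibitor that was tested. Rnase4 and Ang overlap in the RefSeq annotation and share the start site of the window printed above. Ang was at 6.94, 6.35 and 6.62 in scrambled cultures at day 3 and at 8.57, 8.37 and 9.13 at day 9. Under Myb shRNA it was at 6.61, 6.82 and 6.31 at day 3 and at 7.27, 6.95 and 7.66 at day 9. The arms overlapped at day 3 and were apart at day 9. Ang rose in the scrambled arm by 2.05 ± 0.24 (adjusted p = 8.14e-05) and was lower with Myb shRNA at day 9 by -1.39 ± 0.24 (adjusted p = 0.00125). Its change in the Myb arm, 0.72, missed the threshold (adjusted p = 0.0531, and 0.0183 with the replicate number as a block), as did the interaction of -1.33 (adjusted p = 0.0655). With that block the interaction was called as well. At day 3 the difference between the shRNAs was -0.06 for Ang (adjusted p = 0.881), where that of Rnase4 was 0.86. The probes of Rnase4 and Ang were not checked for shared sequence.

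**Figure D4:**
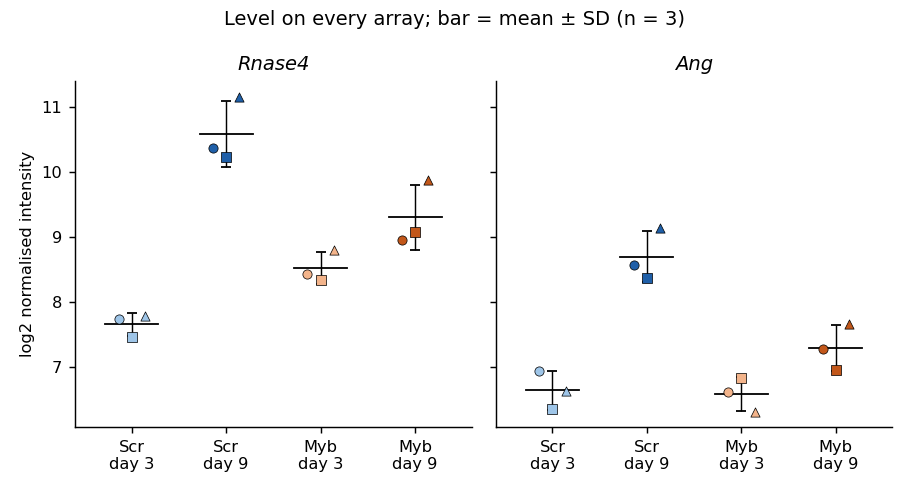
Level of Rnase4 and Ang, which share a start site, on every array as log2 normalised intensity, by shRNA and ALI day, with group means ± SD (n = 3). Both are highest in scrambled cultures of day 9, and at day 3 only Rnase4 lies higher with Myb shRNA than with scrambled shRNA.

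The other families went their own ways. Clca1, the goblet cell CLCA protein and the only other tested member of its family, rose in the scrambled arm by 0.81 (adjusted p = 0.0115, and 0.0543 without day 3 scrambled replicate 1) and did not differ beyond the test at day 9 (0.01, adjusted p = 0.985). Of 4 small Ras-like GTPases, Rasl10a rose by 1.14 in the scrambled arm (adjusted p = 0.00435) and was lower with Myb shRNA at day 9 by -1.24 (adjusted p = 0.00222). Rasl10a was detected on 1 of 3 arrays at day 3 with scrambled shRNA and on 1 of 3 at day 9 with Myb shRNA. Both differences thus involve a level near background. Rasl11b and Rasl11a were higher with Myb shRNA at day 9, by 2.42 (adjusted p = 0.000112) and 1.23 (adjusted p = 0.00192), and Rerg was lower at day 3 by -0.89 (adjusted p = 0.00238). Of 5 myosin light chains, 0 rose in either arm (9.55% and 9.26% of all tested genes). Myl9, a regulatory light chain of smooth muscle and other cells, fell at least 2.28-fold in the Myb arm (adjusted p = 0.0045), and Myl12b changed there by -0.46 (adjusted p = 0.0299). Myl12a was higher with Myb shRNA at day 9 by 0.66 (adjusted p = 0.0326) and at day 3 by 0.67 (adjusted p = 0.0238). The call of Myl12b ended when any 1 of 4 arrays was left out, with an adjusted p of up to 0.124, and those of Myl12a with any 1 of 5 (up to 0.137) and of 4 (up to 0.0883).

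Both tested calmodulin genes were lower with Myb shRNA on both days, Calm2 by -0.55 and Calm3 by -0.58 at day 9 (adjusted p = 0.0345 and 0.00895), and neither rose in the scrambled arm beyond the test, where Calm3 had an adjusted p of 0.0807 (0.0109 with the replicate number as a block). The day 9 call of Calm2 ended with any 1 of 5 arrays left out (adjusted p up to 0.138) and the day 3 call of Calm3 with any 1 of 10 (up to 0.118). Fam216a, the paralog of Fam216b, was lower with Myb shRNA by -1.35 at day 3 (adjusted p = 2.35e-06) and by -0.79 at day 9 (adjusted p = 0.000342). Among 5 intermediate filament genes and synemin partners, Dtna rose in the scrambled arm by 0.71 (adjusted p = 0.00842, and 0.0501 without day 9 scrambled replicate 3), and Vcl, vinculin, was higher with Myb shRNA at day 3 by 0.94 (adjusted p = 0.00112). Nes, nestin, was detected on the arrays of day 3 with Myb shRNA alone, where it was at least 1.92-fold higher than with scrambled shRNA (adjusted p = 1.02e-05). Of 11 WNT targets 2 were tested. Axin2 rose in the scrambled arm by 0.58 (adjusted p = 0.0266, and up to 0.123 with 1 of 4 arrays left out), from a day 3 level near background that 1 of 3 arrays detected. Lgr6 was higher with Myb shRNA by 1.28 at day 3 (adjusted p = 0.000246) and by 0.89 at day 9 (adjusted p = 0.00429). Of the lipid-binding relatives of Sec14l3, 3 of 10 were tested and Mospd2 was called in the Myb arm alone, at -0.59 or at least 1.37-fold (adjusted p = 0.0418, and up to 0.155 with 1 of 5 arrays left out). Of 5 genes of the intermicrovillar adhesion complex, in which Calml4 acts in the intestine, only Cdhr2 was tested, with no call, and no stathmin was tested.

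The 10 genes also varied together between arrays of 1 group. The array of replicate 3 was the highest of its group for 10 of 10 genes in both day 9 groups, for 9 at day 3 with scrambled shRNA and for 7 at day 3 with Myb shRNA. Over all tested genes, replicate 3 was the highest for 35.5% to 44.3% of genes, depending on the group. The mean deviation of the 10 genes on replicate 3 was 0.56 in scrambled and 0.71 in Myb cultures at day 9, and 0.40 and 0.11 at day 3. Motile cilium markers deviated there by 0.31 and 0.48 at day 9 and by 0.41 and 0.11 at day 3, and basal markers by -0.08 and 0.10 and by 0.43 and 0.32. After subtraction of group means, the correlation over 12 arrays between members ranged from 0.42 to 0.98 over 45 pairs, with a median of 0.84. This is a description only, as the labels do not say what arrays of 1 replicate number share. The part of cell makeup in this was not tested. With replicates 1 and 2 alone, the median differences of the 10 were 3.05 and 1.36 for the rises and -2.51 and -0.42 for day 9 and day 3.

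**Figure D5:**
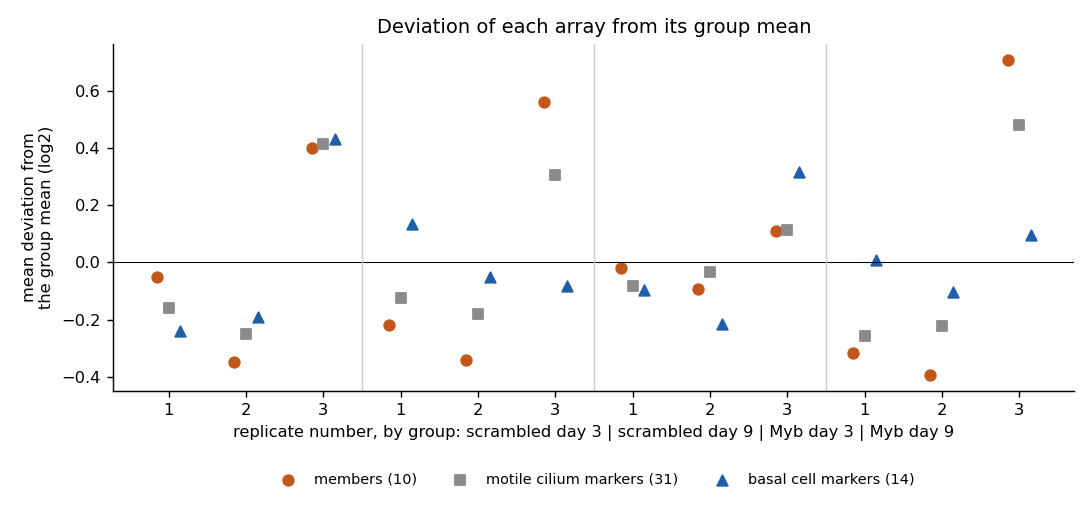
Mean deviation (log2) of each array from the mean of its group, for the 10 genes, 31 motile cilium markers and 14 basal cell markers. Replicate 3 has the highest deviation of the 10 genes in each group, up to 0.71 in day 9 Myb shRNA, where the basal markers lie at 0.10.

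Other genes with the most similar profile over the 12 arrays were picked by Pearson's r with the mean standardised profile of the 10, so their values are descriptions. The closest was Aoc1, a diamine oxidase (r = 0.994, n = 12 arrays), with means of 6.00 and 9.46 at day 3 and day 9 in scrambled cultures and of 5.55 and 6.89 with Myb shRNA. Fgd2 (0.992), Lhb, Mcf2l and Sftpc (0.988 each), Tspoap1, Slc5a8 and Plxnb3 (0.986 each), and Serpinb12 and Tsku (0.985 each) followed. Several of them, such as Fgd2, Sftpc, Tspoap1 and Tsku, had means near background in every group but scrambled day 9. Fgd2 was at 6.62 there and at 4.73, 4.53 and 5.06 in scrambled day 3, Myb day 3 and Myb day 9. The r of such genes rests mainly on that 1 group. Serpinb12, a serine protease inhibitor gene, rose by 4.87 in the scrambled arm, and was at 4.50 at day 3 with Myb shRNA, a level at background, and at 7.49 at day 9. For single genes, the nearest were Spsb1 to Clca3b (r = 0.967), Acot1 to Myl4 (0.990), Aoc1 to Diras2 (0.995), Fgd2 to Lbh (0.984), Cdc14a to Rnase4 (0.963), Sgcb to Synm (0.972), Bbox1 to Stmnd1 (0.993), Chia1 to Calml4 (0.994), Cmtm8 to Fam216b (0.992) and Nhlrc4 to Sec14l3 (0.998). A course like that of the single gene is set by this choice. Acot1, a thioesterase gene, differed by -2.25 at day 3 and -2.57 at day 9. Cdc14a, a phosphatase gene, differed by 0.18 ± 0.27 at day 3, where Rnase4 differed by 0.86 ± 0.26, and by -1.02 at day 9. These correlations hold the group differences themselves and the replicate 3 pattern.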

How the data were processed

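RNA was hybridised to 12 Illumina bead arrays, 3 per group, with groups and replicate numbers taken from the labels. The deposited unnormalised table holds, per the file headers, an intensity with its detection p-value for 45281 probes. A second deposited table holds the authors' processed log2 values, whose rank order equals that of the intensities on each array (rank correlation 1) and whose normalisation is not given in the sources used here. The submitters' processing notes name BeadStudio 3.0 and limma.

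In R 4.3.3 with limma 3.58.1, neqc corrected background by way of detection p-values, with an offset of 16 before quantile normalisation and log2. Probes detected at p under 0.01 on at least 3 arrays were kept (15526). Of these, 13793 had a name from the platform annotation, updated through mouse gene tables. The probe with the highest mean stood for a gene with several, which gave 9381 genes. A linear model of the 4 group means (8 residual degrees of freedom) was moderated with eBayes with a trend, and p-values were adjusted over all genes by Benjamini-Hochberg, at 0.05. The fit was tested on simulated data. A level not detected in a whole group was replaced, for a bound, by the lowest detected signal of each array. The number of arrays limits the precision, with a median standard error of 0.17 for a difference of groups and 0.24 for the interaction.

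The members and gene lists were chosen with earlier results of these data known. Genes named are the members, the relatives called in at least 1 contrast, up to 4 markers per list with the smallest p at day 9, and the genes of like pattern. Promoter windows come from RefSeq (GRCm38.p6), and all 10 members matched by symbol.

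Arrays of the same replicate number deviated from the group means together (lowest correlation 0.267 and 0.107 between days with scrambled and Myb shRNA, 0.297 and 0.150 between shRNAs on day 9 and on day 3). The main fit has no pairing all the same, and its standard errors and p-values are unpaired. A fit with the replicate number as a block was an alternative, and values from it are named as such. For day 9 scrambled and day 3 Myb shRNA the lowest was 0.02, and the main fit assumes no pairing for the interaction either. Labels do not say what a number stands for beyond a biological replicate.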

Additional observations from a re-analysis of the deposited data

Results flagged for a closer look

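Among the named relatives and markers, a test of the difference between the arms' changes from day 3 to day 9 was passed by 2. The genes of like pattern were left out of this count because they were picked by their profile. Markers were named by their p at day 9, so other listed markers with a called interaction, such as Lrrc23, Mcidas, Foxn4 and Ccno, lie outside it. Morn5 rose by 0.80 in the scrambled arm and by 2.82 in the Myb arm. Its interaction was 2.02 (adjusted p = 0.00205 by limma, n = 3 per group). The median of the 10 genes has the opposite sign, which their choice favours. Nes changed by -0.13 in the scrambled arm and by -1.54 in the Myb arm, an interaction of -1.41 (adjusted p = 0.00765 by limma). Nes was detected on all 3 arrays of day 3 with Myb shRNA and on no other array, so its change in the Myb arm is a fall of at least 1.96-fold and the interaction rests on values at background. Both calls held with the replicate number as a block and with each array left out in turn.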

How the results depend on the processing

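Of the members' differences, those in each contrast kept their sign under every alternative when they exceeded the residual SD, except the interaction of Stmnd1, which turned from -1.39 to 0.54 with quantile normalisation floored at 1. The median difference of the members in the Myb arm, 1.70, became 1.19 with the authors' processed log2 values, 2.14 with the floor of 1, 1.20 with an offset of 50 and 0.72 with detection on all 12 arrays, which keeps 4 members, and ranged from 1.25 (without day 9 Myb shRNA replicate 3) to 1.94 with single arrays left out. Their median at day 3, -0.62, became -1.14 with the floor of 1, -0.30 with array weights and -0.22 under detection on all arrays, and ranged from -0.76 to -0.38 (without day 3 scrambled replicate 3) with single arrays left out. The median interaction became -2.27 with array weights and -2.20 with detection on all 12 arrays.

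Counts of genes called depended on the fit. For the scrambled rise 1601 genes were called, 2817 with the replicate block, 4673 with array weights and 3523 with replicates 1 and 2 only (chosen after seeing the data), and 811 (without day 9 scrambled replicate 3) to 2750 (without day 3 scrambled replicate 3) with single arrays left out. For the Myb rise the counts were 1566, 2367, 4777 and 2478, and 1039 (without day 3 Myb shRNA replicate 1) to 1978. For day 9 they were 1513, 2331, 2742 and 2411, and 949 (without day 9 scrambled replicate 3) to 1900. For day 3 they were 2134, 3400, 6564 and 3602. For the interaction they were 155, 715, 3399 and 1410, with 80 under detection on all arrays, and 52 (without day 3 Myb shRNA replicate 1) to 328 (without day 3 scrambled replicate 3). The estimation of array weights stopped before its tolerance was reached, with weights from 0.153 to 19.8, so these counts are not read further.

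Relatives called for the scrambled rise were 6, against 12 with the replicate block, 16 with array weights and 14 with replicates 1 and 2 only, and 4 to 10 with single arrays left out. For the Myb rise they were 7, against 11, 18 and 11, with 3 under detection on all arrays or with no filter, and 3 (without day 3 Myb shRNA replicate 2) to 10. At day 3 they were 10, against 18 with array weights, and 6 (without day 3 Myb shRNA replicate 1) to 10. For the interaction they were 1, against 5, 10 and 9, with 0 under the floor of 1 or detection on all arrays, with 2 under an offset of 50, detection p under 0.05, the mean of probes or eBayes without trend, and 1 to 3 with single arrays left out. Motile cilium markers called were 28 and 29 for the rises, against 18 and 19 where detection on all arrays left fewer genes to test, and 9 for the interaction, against 19 with the replicate block, 23 with array weights, 19 with replicates 1 and 2 only and 4 (without day 3 Myb shRNA replicate 1) to 10. The replicate block added calls and removed none among the relatives and cilium markers. The interaction of Ang had an adjusted p of 0.0655, and of 0.0126 with the replicate block. The other causes were not tested.

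Levels near 5 are at background, which limits Synm, Stmnd1, Calml4, Fam216b and, at day 3 with Myb shRNA, Diras2 and in part Myl4, and probes of a dim gene can miss it.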
